A study of Mus musculus with 17 samples.

Results

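The 33 genes described here encode the enzymes that take glucose to lactate, the transporters and kinases that set the rate of that path, and the oxygen sensors and targets of the hypoxia response. They were taken as a fixed set of gene symbols, matched through NCBI gene numbers, from the 27179 genes counted in RNA of mouse colon preparations, and all 33 were found. The libraries, 17 in number, came from C57BL/6 mice of 8 weeks. MCJ-deficient and wild-type mice were compared under 3 conditions, named PP, NP and NN in the library titles. PP mice took a broad-spectrum antibiotic for 7 days and then dextran sulfate sodium (DSS), a detergent-like polymer that injures the colon lining, for 6 days (3 MCJ-deficient and 3 wild-type libraries). NP mice took DSS for 6 days without the antibiotic (3 and 3). For NN mice no treatment is named (2 MCJ-deficient and 3 wild-type libraries). MCJ is the protein of Dnajc15, a mitochondrial co-chaperone known to restrain complex I of the respiratory chain. How its allele was made is not given in the sources used here. Colon tissue was digested with collagenase IV, the labels call the cells macrophages, and no sorting step is named.

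Glycolysis splits glucose into pyruvate in the cytosol, and lactate dehydrogenase turns pyruvate into lactate, which leaves the cell through monocarboxylate transporters. When oxygen is scarce, prolyl hydroxylases of the Egln family stop marking the alpha subunit of hypoxia-inducible factor for destruction, and the stabilised factor binds a short DNA core, ACGTG or GCGTG, near glycolytic, angiogenic and mitophagy genes. Macrophages and neutrophils raise the same genes on activation in normal oxygen, and the colon surface epithelium is known to live at low oxygen in health.

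Sequencing depth lay between 29194744 and 37083344 counts per library, of which 23.1% to 50.4% fell on the mitochondrial chromosome. Dnajc15 had 21 to 121 counts in MCJ-deficient libraries, against 359 to 1534 counts in wild-type libraries, so each library matched its genotype label. Levels below are normalized CPM, counts scaled to library size with TMM factors over all 17 libraries. The libraries did not carry markers of 1 cell type. The 14 macrophage markers summed to 2902 to 5515 normalized CPM in MCJ-deficient and 637 to 5053 in wild-type PP libraries, to 529 to 1565 and 151 to 241 in NP libraries, and to 41.8 to 48.1 and 29.2 to 46.6 in NN libraries, where the defining marker Cd163 was at 0 in both genotypes. In NN libraries the 17 colonocyte markers summed to 22990 to 29190 normalized CPM in MCJ-deficient and 31750 to 34020 in wild-type mice. NN libraries were therefore rich in colonocyte markers and poor in macrophage markers, against their label. MCJ-deficient PP replicate 23 stood apart. Its 12 neutrophil markers summed to 8167 normalized CPM, against 1806 and 1828 in the other MCJ-deficient PP libraries and 263 to 1674 in wild-type PP libraries, and 26 of the 33 genes had their highest level of all 17 libraries in it. Calls and counts for MCJ-deficient PP mice are therefore also given without this library. Wild-type NN replicate 2 stood apart by the number of genes with at least 10 counts, 10075 against 12383 or more in every other library.

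**Figure D1:**
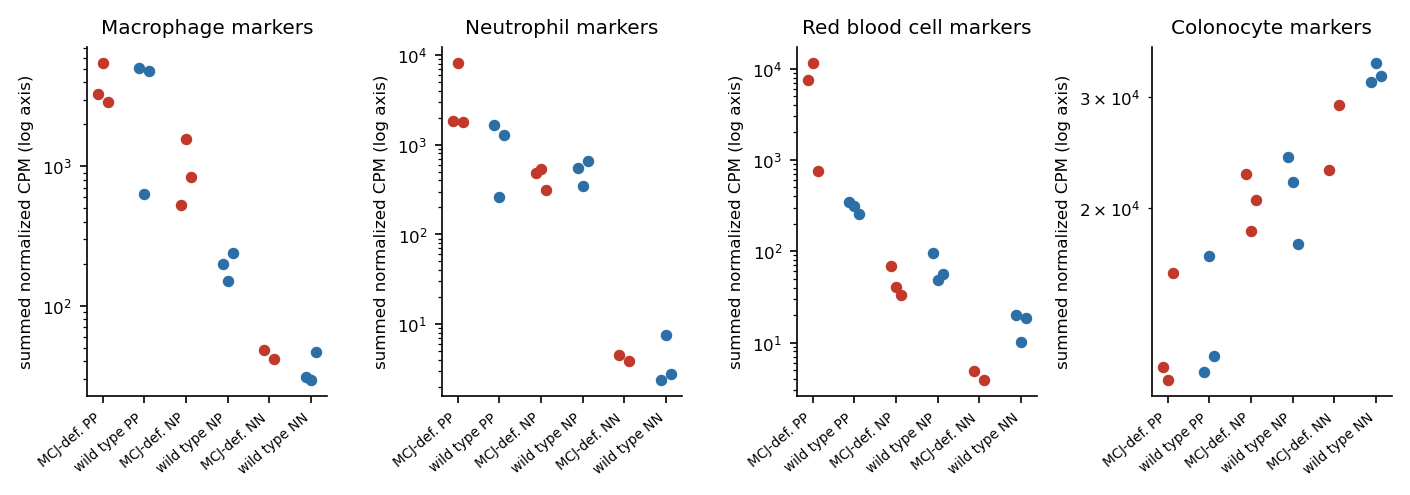
Summed normalized CPM of marker genes (log axis) in each library, 1 point per library, for 14 macrophage, 12 neutrophil, 4 red blood cell and 17 colonocyte markers; groups run from PP to NN with MCJ-deficient (red) left of wild type (blue). Within each genotype, macrophage and neutrophil markers were lowest in the NN libraries, where colonocyte markers were highest.

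Per kilobase of transcript, the levels of the 33 genes spanned a wide range. Ldha, the lactate dehydrogenase subunit of anaerobic tissues, was the most abundant, with a median of 533 normalized CPM per kb over the 17 libraries (318 to 716). Aldoa, the main aldolase, followed at 463, Tpi1, triosephosphate isomerase, at 222, and Pkm, pyruvate kinase, at 187. The hypoxia genes sat lower, with medians per kb of 23.9 for Hif1a, the oxygen-regulated alpha subunit itself, 23.3 for Adm, a vasodilator peptide, and 15.3 for Car9, a carbonic anhydrase at the cell surface. Hk3, a hexokinase of white blood cells, was the least abundant at 0.273, and Pfkm, the muscle phosphofructokinase, came next at 0.885. The order rests on the longest protein-coding transcript of each gene, and the ranges of genes next to each other in it overlapped.

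Within the enzyme families, 1 form often made up nearly all of the level per kb. Ldha took 98.4% or more of Ldha and Ldhb together in all groups, and Pkm took 91.4% to 99.5% of Pkm and Pklr, the liver form. Hexokinase and phosphofructokinase were mixed. Hk3 held 2.90%, 25.6% and 1.95% of the hexokinase level in MCJ-deficient PP libraries and 12.5%, 2.23% and 3.74% in wild-type PP libraries. In NN libraries it held 0.0% and 0.0278% in MCJ-deficient and 0.0% to 0.0835% in wild-type mice. Pfkl, the liver phosphofructokinase, held 29.5% to 34.3% of the family in MCJ-deficient and 36.8% to 53.0% in wild-type PP libraries, against 54.8% to 58.6% and 52.0% to 59.8% in NN libraries of the same genotypes. Pfkp, the platelet form, held 63.8% to 69.1% in MCJ-deficient and 45.1% to 61.2% in wild-type PP libraries, against 36.5% to 38.6% and 35.4% to 48.0% in NN libraries. The Hk3 share did not overlap between PP and NN libraries in either genotype. Hk3 had 1 count in each NN group and passed the filter on low counts only through the treated groups, so this is a description and no result. The Pfkl share of wild-type PP libraries reached into the range of wild-type NN libraries.

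**Figure D2:**
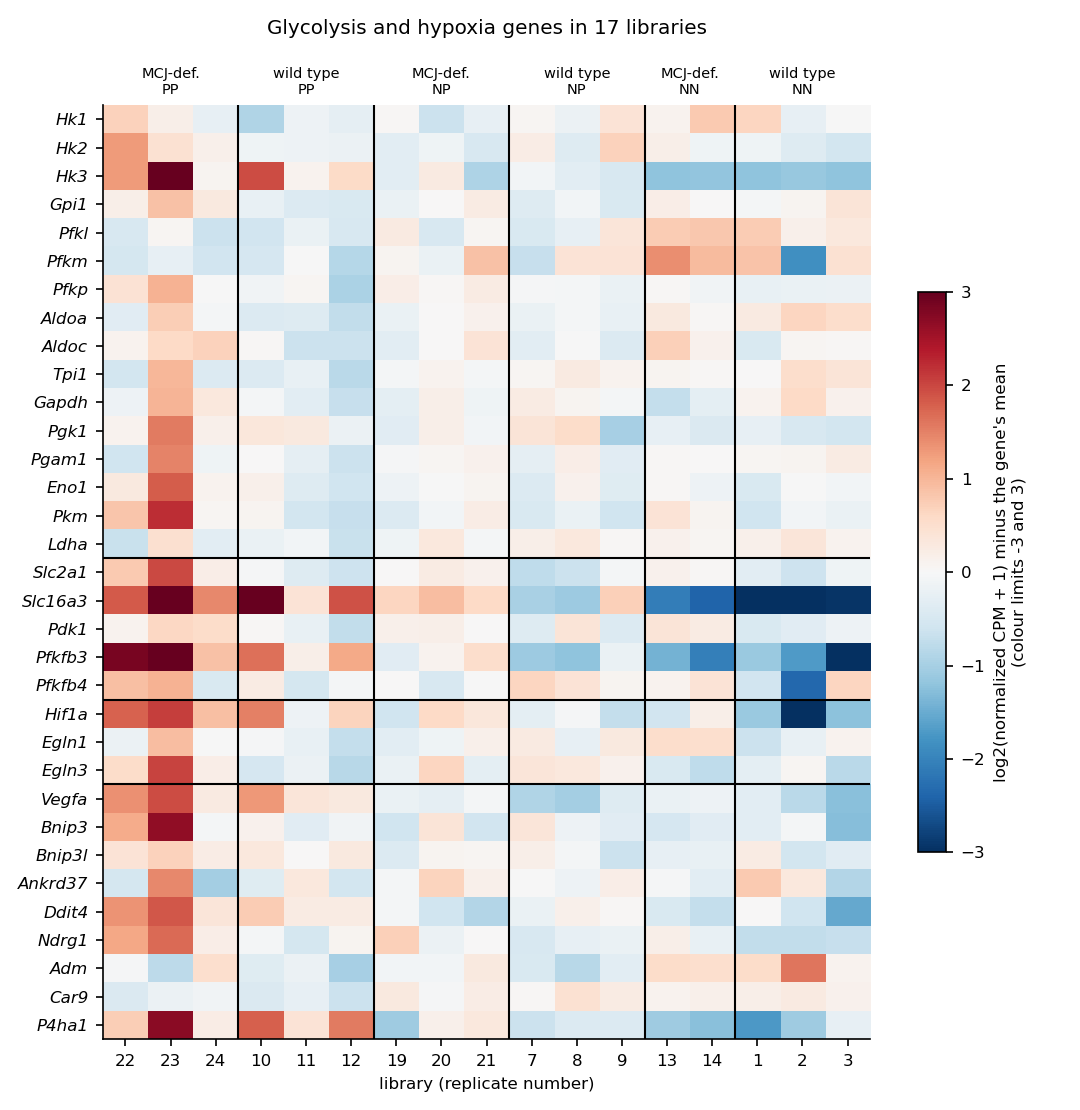
Level of each of the 33 genes (rows, by role) in each of the 17 libraries (columns, numbered by replicate), as log2(normalized CPM + 1) minus the mean of the gene over all libraries; red is above and blue below that mean. Replicate 23 of the MCJ-deficient PP group is red in most rows, while Slc16a3, Pfkfb3 and Hif1a shift from blue towards red from NN to PP in both genotypes.

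The largest differences lay between PP and NN mice, where antibiotic and DSS together are set against no treatment. In MCJ-deficient mice 8 of the 33 genes were higher and 1 was lower at an adjusted p under 0.05, where 6.52% of the 16958 genes tested were higher and 3.77% lower. In wild-type mice 6 were higher and 4 were lower, where 12.8% and 7.31% of all genes were. These p-values come from edgeR's quasi-likelihood test with Benjamini-Hochberg adjustment over all genes and measure the spread between samples, for which the labels give 1 mouse number per library. All 33 genes passed the filter on low counts, but Hk3 did so only through the treated groups where it was high, so it had to differ and its p is not given. Leaving Hk3 aside, 7 genes rose in MCJ-deficient and 5 in wild-type mice. Of these, 4 were the same, namely Slc16a3, Pfkfb3, P4ha1 and Vegfa (57.1% and 80.0% of the lists), and Pfkl fell in both. The share of calls common to both genotypes over all genes is not given, so this overlap is not read as particular to these genes. In such bulk samples, fewer cells of a type and less RNA per cell cannot be told apart. Outside the comparisons of genotypes, the share of all genes without overlap between groups is not given. Non-overlap named for single genes between PP, NP and NN libraries therefore only describes their values. For DESeq2 and for fits with a library left out, the shares and medians of all 33 genes likewise stand without those of all genes tested. Counts from such fits are not read as particular to the 33 genes.

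The promoters of these 5 shared genes and of Hk3 are shown because the hypoxia factor is known to bind the cores ACGTG and GCGTG. Each is the 250 bases before a start site of RefSeq (GRCm38.p6), 5′ to 3′ on the strand of the gene, with either core on either strand in capitals. They are Slc16a3 at chr11:120948817-120949066 (plus strand), Pfkfb3 at chr2:11553930-11554179 (minus strand), P4ha1 at chr10:59323046-59323295 (plus strand), Hk3 at chr13:55021386-55021635 (minus strand), Pfkl at chr10:78009808-78010057 (minus strand) and Vegfa at chr17:46032378-46032627 (minus strand).
Slc16a3: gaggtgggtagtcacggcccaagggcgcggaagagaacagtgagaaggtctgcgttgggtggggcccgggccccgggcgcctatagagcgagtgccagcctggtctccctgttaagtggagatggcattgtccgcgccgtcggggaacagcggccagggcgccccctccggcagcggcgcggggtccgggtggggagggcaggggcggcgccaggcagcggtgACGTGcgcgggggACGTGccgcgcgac
Pfkfb3: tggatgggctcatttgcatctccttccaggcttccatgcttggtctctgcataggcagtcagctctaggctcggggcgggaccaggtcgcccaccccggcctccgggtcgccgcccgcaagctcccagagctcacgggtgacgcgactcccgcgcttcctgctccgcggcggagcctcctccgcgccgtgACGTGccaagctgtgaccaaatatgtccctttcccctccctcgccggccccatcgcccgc
P4ha1: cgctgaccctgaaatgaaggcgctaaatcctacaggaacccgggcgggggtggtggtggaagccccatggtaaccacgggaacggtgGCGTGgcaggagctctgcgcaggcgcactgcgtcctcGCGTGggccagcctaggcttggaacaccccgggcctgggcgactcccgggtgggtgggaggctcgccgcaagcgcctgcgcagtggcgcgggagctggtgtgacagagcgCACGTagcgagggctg
Hk3: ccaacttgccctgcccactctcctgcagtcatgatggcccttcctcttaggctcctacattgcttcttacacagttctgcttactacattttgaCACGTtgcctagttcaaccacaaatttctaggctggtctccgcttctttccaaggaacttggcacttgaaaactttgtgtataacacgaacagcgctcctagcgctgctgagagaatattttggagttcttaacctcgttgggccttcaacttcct
Pfkl: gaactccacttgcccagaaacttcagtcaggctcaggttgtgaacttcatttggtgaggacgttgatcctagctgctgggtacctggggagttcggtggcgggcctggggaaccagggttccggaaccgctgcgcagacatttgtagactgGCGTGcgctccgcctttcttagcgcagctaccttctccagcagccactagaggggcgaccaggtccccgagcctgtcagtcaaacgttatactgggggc
Vegfa: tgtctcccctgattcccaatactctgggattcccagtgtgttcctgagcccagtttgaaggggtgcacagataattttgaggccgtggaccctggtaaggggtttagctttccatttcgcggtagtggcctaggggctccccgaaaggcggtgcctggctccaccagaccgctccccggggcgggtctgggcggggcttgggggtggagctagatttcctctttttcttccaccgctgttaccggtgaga
Slc16a3 has a pair of ACGTG cores close before the start, Pfkfb3 and Hk3 have 1 ACGTG each, P4ha1 has 1 ACGTG and 2 GCGTG, and Pfkl, which fell, has 1 GCGTG. Vegfa has neither core here. Vegfa and Pfkfb3 each have another start site in the table, and the 250 bases before it hold both cores for Vegfa (chr17:46025164-46025413) and for Pfkfb3 (chr2:11502091-11502340). Both of these windows lie inside the span of their own gene (46016993 to 46032377 for Vegfa, 11471430 to 11554071 for Pfkfb3). Whether either start site was in use in these samples was not tested.

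Windows of 300 bases, including the first 50 after the start, were found for 31 of the 33 genes. Of their 45 windows, 37 (82.2%) held ACGTG or GCGTG on either strand, against 43.8% of all 32851 windows and 57.8% of the 15702 windows of genes tested over all libraries. ACGTG was in 26 of the 45, against 19.6% of all windows and 23.7% of those of tested genes. The palindrome CACGTG, which contains ACGTG and is bound by other factors, was in 5 of the 45 and in 7.15% of all windows. Such matches are descriptions of letters, both cores contain CG, and base composition was not matched.

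Slc16a3, which encodes the lactate exporter MCT4 of glycolytic cells, was called in every comparison of PP or NP with NN mice. It had 28.8, 115 and 21.4 normalized CPM in MCJ-deficient PP libraries, against 0.973 and 0.566 in MCJ-deficient NN libraries. Every PP library was above every NN library, with a log2 fold change of 6.16 ± 1.06 (SE; edgeR adjusted p = 0.00103). In wild-type PP libraries it had 75.4, 10.1 and 30.1 normalized CPM, against 0.0, 0.0486 and 0.0765 in wild-type NN libraries. The wild-type NN group held 3 counts in all, so the fold is given as a ratio of scaled counts, 878 (95% exact interval 300.2 to 4259, counting error only; edgeR adjusted p = 2.21e-05). Pfkfb3, whose enzyme makes the sugar bisphosphate that activates phosphofructokinase, had 59.2, 236 and 14.4 normalized CPM in MCJ-deficient PP libraries, against 2.13 and 1.03 in MCJ-deficient NN libraries (log2 fold change 6.03 ± 1.26, edgeR adjusted p = 0.00474). Its wild-type levels were 25.3, 8.43 and 17.5 normalized CPM in PP, against 2.91, 1.61 and 0.0382 in NN (3.49 ± 0.95, edgeR adjusted p = 0.0148). PP and NN libraries did not overlap in either genotype. Slc2a1, the glucose importer GLUT1, Pdk1, the kinase that closes pyruvate dehydrogenase, and Pfkfb4, a relative of Pfkfb3, passed the test in neither genotype.

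Among the enzymes, Hk3 was nearly absent from NN mice. It had 4.64, 32.1 and 1.46 normalized CPM in MCJ-deficient PP libraries, against 0.0 and 0.0257 in MCJ-deficient NN libraries. With 1 count in the NN group, the ratio of scaled counts was 1004 (95% exact interval 180 to 39690). Wild-type PP libraries had 7.96, 1.51 and 2.45 normalized CPM of Hk3, against 0.0, 0.0486 and 0.0 in wild-type NN libraries, a ratio of 271 (48.4 to 10750). Apart from Hk3, which had to differ, no enzyme was higher by the test in either genotype. Pfkl moved the other way. It fell to 37.3, 54.3 and 33.1 normalized CPM in MCJ-deficient PP libraries, against 89.3 and 92.3 in MCJ-deficient NN libraries (log2 fold change -1.13 ± 0.31, edgeR adjusted p = 0.0284). In wild-type mice it fell to 34.7, 45.8 and 37.1 in PP, against 89.2, 58.3 and 65.8 in NN (-0.86 ± 0.29, edgeR adjusted p = 0.0427). Aldoa had 565, 574 and 446 normalized CPM in wild-type PP libraries, all below the 905, 1166 and 1083 of wild-type NN libraries (-0.99 ± 0.26, edgeR adjusted p = 0.0111). In MCJ-deficient mice Aldoa had 591, 1246 and 715 in PP and 925 and 770 in NN, groups that overlapped. The other 13 enzymes did not pass the test in either genotype. Counting all 16 from hexokinase to lactate, the median log2 fold change was 0.45 in MCJ-deficient and -0.46 in wild-type mice, where the medians of all genes tested were 0.06 and 0.27. The MCJ-deficient median holds PP replicate 23, the highest MCJ-deficient PP library in 28 of the 33 genes, and is not given without it. The opposite signs are therefore not read as a difference between genotypes.

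Of the oxygen sensors, Hif1a rose in wild-type mice, to 333, 105 and 185 normalized CPM in PP, against 53.7, 10.7 and 49.3 in NN (log2 fold change 2.45 ± 0.54, edgeR adjusted p = 0.0037). In MCJ-deficient mice it had 398, 496 and 218 in PP and 78.4 and 132 in NN. These groups did not overlap either, but the log2 fold change of 1.82 ± 0.61 missed the threshold (edgeR adjusted p = 0.0669). Egln3, the prolyl hydroxylase that is itself a hypoxia target, rose in MCJ-deficient mice, with 36.7, 105 and 28.9 normalized CPM in PP against 17.96 and 14.4 in NN (1.81 ± 0.49, edgeR adjusted p = 0.025). Its wild-type levels were 17.2, 21.98 and 13.6 in PP and 20.2, 26.1 and 13.8 in NN, which overlapped. Egln1, the main prolyl hydroxylase, passed in neither genotype.

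Among the other hypoxia targets, P4ha1, a subunit of collagen prolyl hydroxylase, rose in both genotypes. It had 20.99, 86.1 and 14.5 normalized CPM in MCJ-deficient PP libraries, against 5.29 and 4.53 in MCJ-deficient NN libraries (log2 fold change 3.05 ± 0.75, edgeR adjusted p = 0.014). Wild-type libraries had 44.9, 16.6 and 38.0 in PP, against 2.99, 5.30 and 10.1 in NN (2.43 ± 0.62, edgeR adjusted p = 0.0101). Vegfa, the main angiogenic growth factor, had 51.6, 78.1 and 23.7 normalized CPM in MCJ-deficient PP libraries, against 16.7 and 17.4 in MCJ-deficient NN libraries (1.59 ± 0.46, edgeR adjusted p = 0.0366). Its wild-type levels were 48.8, 25.2 and 23.98 in PP, against 15.4, 10.6 and 7.61 in NN (1.54 ± 0.40, edgeR adjusted p = 0.0117). For both genes every PP library was above every NN library of its genotype.

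Bnip3, a mitophagy receptor, and Ddit4, an inhibitor of mTOR signalling, passed the test in MCJ-deficient and not in wild-type mice. Bnip3 had 50.7, 151 and 21.9 normalized CPM in PP, against 15.9 and 17.8 in NN (log2 fold change 2.15 ± 0.62, edgeR adjusted p = 0.0336), and Ddit4 had 33.7, 48.6 and 16.6 against 8.94 and 7.25 (2.03 ± 0.52, edgeR adjusted p = 0.0185). In wild-type mice Bnip3 had 25.02, 17.9 and 21.4 in PP and 18.3, 22.1 and 8.95 in NN, and Ddit4 had 22.1, 15.1 and 15.1 in PP and 12.6, 7.98 and 3.71 in NN. Bnip3 groups thus overlapped in wild-type mice, while those of Ddit4 did not (1.11 ± 0.44, edgeR adjusted p = 0.086). Adm and Car9 fell in wild-type mice. Adm had 26.2, 30.1 and 16.5 normalized CPM in wild-type PP libraries, against 50.6, 106 and 36.4 in wild-type NN libraries (-1.40 ± 0.38, edgeR adjusted p = 0.0152), and Car9 had 20.9, 23.8 and 17.99 against 32.5, 34.9 and 31.3 (-0.65 ± 0.23, edgeR adjusted p = 0.0495). In MCJ-deficient mice Adm had 33.3, 19.4 and 48.3 in PP and 50.6 and 48.9 in NN, and Car9 had 21.1, 25.4 and 26.4 in PP and 30.9 and 31.8 in NN, without overlap and without passing the test. Bnip3l, a relative of Bnip3, Ankrd37, an ankyrin-repeat protein, and Ndrg1, a stress-induced protein, passed in neither genotype.

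A gene called in 1 genotype is not thereby shown to differ between genotypes. The difference of the 2 responses, tested as an interaction term added after the data were seen, called none of the 33 genes (0.0531% of all genes were called). Of the 33, 6 had an unadjusted p under 0.05, where 8.26% of all genes had, and DESeq2 called 1. Without MCJ-deficient PP replicate 23, 3 had. Egln3 had a difference of 2.00 ± 0.63 and Gapdh, the dehydrogenase often used as a reference transcript, of 1.59 ± 0.43 on the log2 scale (edgeR adjusted p = 0.393 and 0.27).

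**Figure D3:**
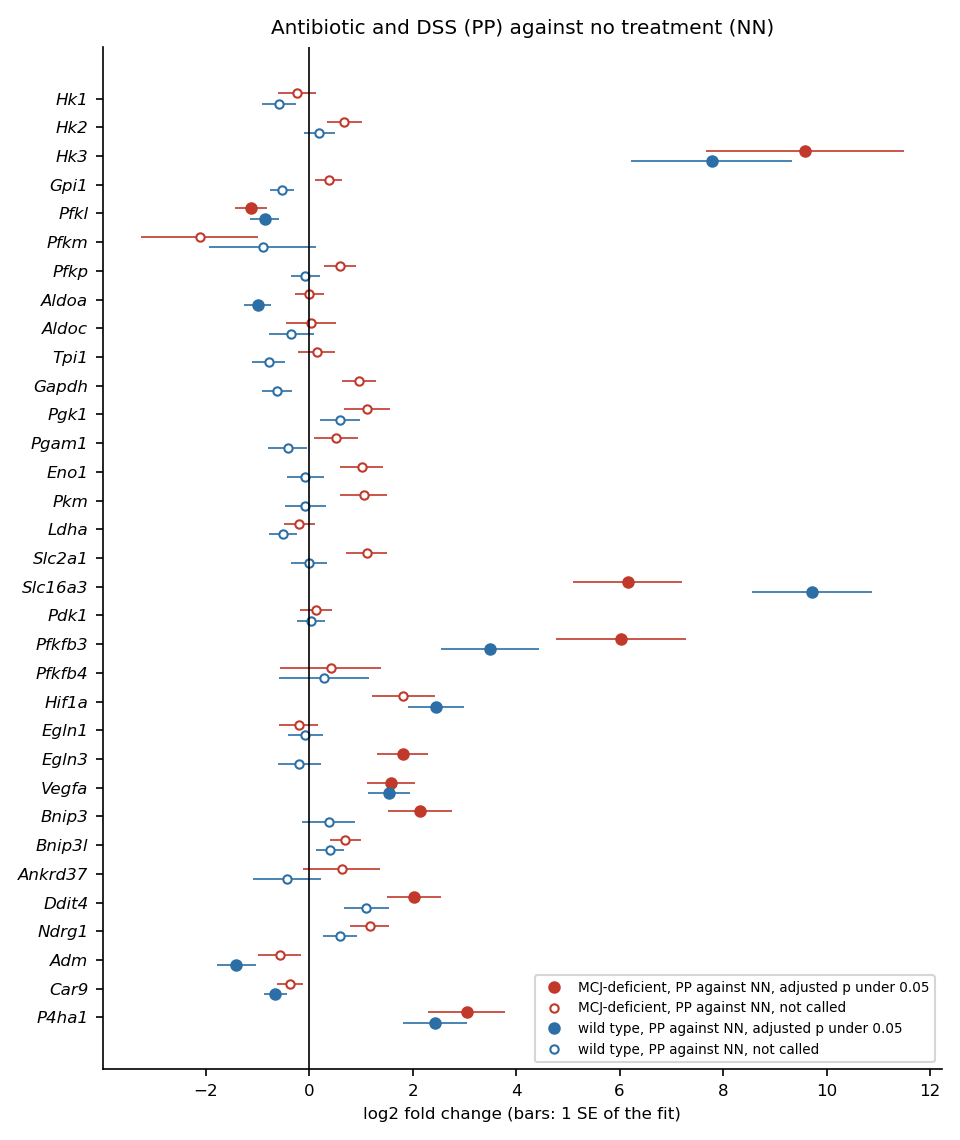
Log2 fold change of each of the 33 genes in PP against NN mice, MCJ-deficient (red, upper point of each pair) and wild type (blue, lower point), with bars of 1 SE of the fit; filled points have an adjusted p under 0.05. Slc16a3, Pfkfb3, P4ha1 and Vegfa are filled on the right in both genotypes and Pfkl on the left; Hk3, also filled, had to differ through the filter; the fitted folds of Hk3 and of wild-type Slc16a3 rest on 1 and 3 counts in the NN group and depend on the prior count of the fit.

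Some lists of cell markers moved with these differences, and others did not. From PP to NN libraries of the same genotype the summed levels did not overlap for macrophage markers (2902 to 5515 against 41.8 to 48.1 normalized CPM in MCJ-deficient mice, 637 to 5053 against 29.2 to 46.6 in wild-type mice), for neutrophil markers (1806 to 8167 against 3.86 to 4.52, and 263 to 1674 against 2.37 to 7.64) or for colonocyte markers (10620 to 15740 against 22990 to 29190, and 10950 to 16770 against 31750 to 34020). Monocyte markers overlapped in wild-type mice (627 to 2110 in PP against 1239 to 2063 in NN) but not in MCJ-deficient mice (2706 to 4021 against 548 to 932). Goblet and secretory epithelium markers overlapped in both (1635 to 3720 against 1723 to 2473 in MCJ-deficient, 2188 to 4173 against 2542 to 6207 in wild-type mice). All 14 macrophage and 12 neutrophil markers were detected in both PP groups. In NN libraries 13 of the 14 macrophage markers were detected, and the neutrophil markers Cxcr2 and Camp were at 0 in both genotypes, with Mmp8 and Ltf also at 0 in MCJ-deficient mice. The part of these markers in the results was not tested.

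Single libraries weighed on the counts. In MCJ-deficient mice 4 of the 33 genes were called without PP replicate 23 (Slc16a3 at 5.02 ± 0.92, Pfkfb3 at 4.54 ± 1.12, Pfkl at -1.36 ± 0.34, and Hk3, which had to differ). Without it the log2 fold change was 1.86 ± 0.60 for P4ha1, 1.64 ± 0.54 for Ddit4, 1.14 ± 0.46 for Vegfa, 1.11 ± 0.49 for Bnip3 and 1.02 ± 0.40 for Egln3, each outside the threshold (edgeR adjusted p from 0.08 to 0.214). In the same mice 1 gene was called without NN replicate 13 and 2 without NN replicate 14, where the lone NN library was taken to vary like the other groups. In wild-type mice 6 were called without PP replicate 12 and 8 without NN replicate 2, where Hif1a was at 2.01 (edgeR adjusted p = 0.00944). Beyond these, MCJ-deficient mice lost the call of Pfkl without PP replicate 22 or 24, and that of Vegfa without PP replicate 22 or NP replicate 19. Wild-type PP replicate 12 carried Adm, Aldoa, Pfkl and Car9, wild-type PP replicate 10 carried Vegfa, Pfkl and Car9, and wild-type NN replicate 2 carried Adm, which was at -0.85 without it. Pfkl in wild-type mice was also lost without wild-type NN replicate 1 or 3, wild-type NP replicate 8, MCJ-deficient NN replicate 13 or 14 or MCJ-deficient NP replicate 21, and Car9 kept its call only without wild-type PP replicate 11 or MCJ-deficient PP replicate 22 or 24. Over the alternatives run, the adjusted p of edgeR or DESeq2 reached 0.171 for Pfkl and 0.257 for Vegfa in MCJ-deficient mice, and 0.0822 for Vegfa, 0.109 for Adm, 0.15 for Pfkl and 0.162 for Car9 in wild-type mice.

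**Figure D4:**
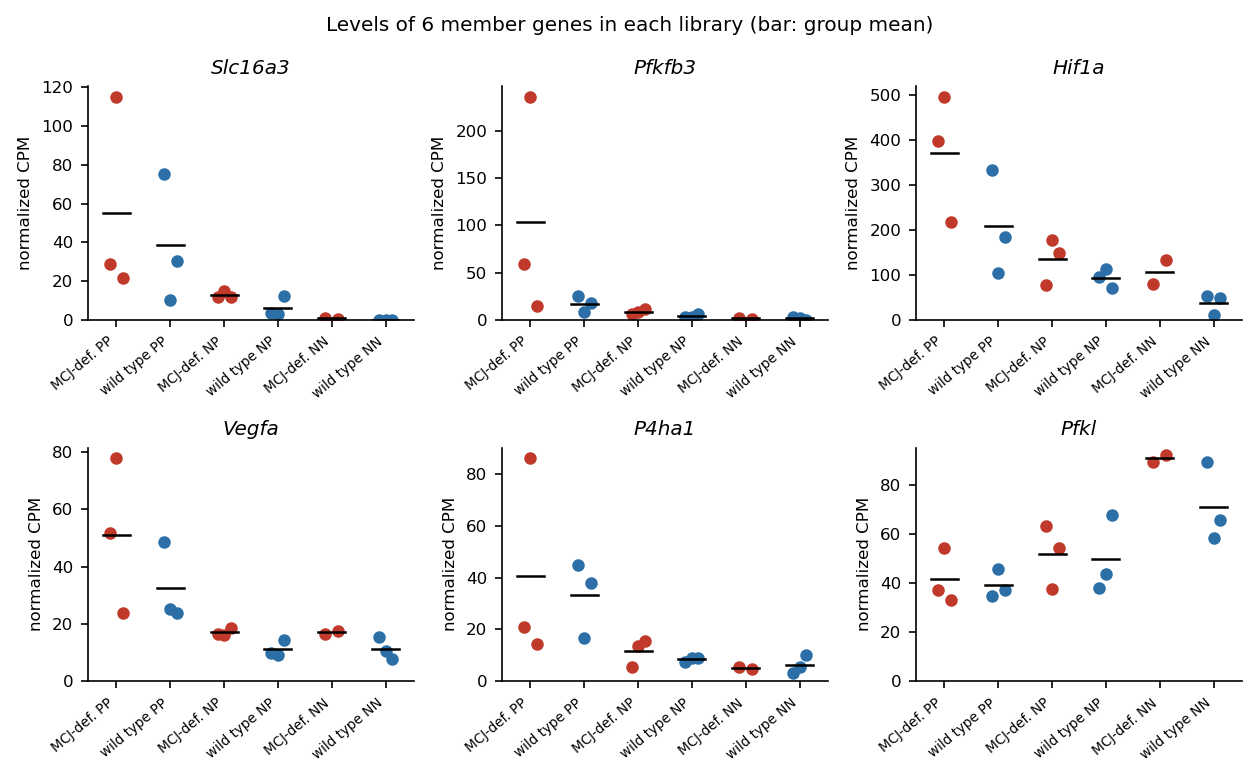
Normalized CPM of Slc16a3, Pfkfb3, Hif1a, Vegfa, P4ha1 and Pfkl in each library (points) with the group mean (bar), MCJ-deficient in red left of wild type in blue, from PP to NN. In 5 of the panels the PP libraries lie above the NN libraries of the same genotype, and in the Pfkl panel they lie below them.

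DSS alone, given to NP mice, changed 1 of the 33 genes by the test in each genotype, Slc16a3, where 2.04% of all genes were higher in MCJ-deficient and 2.25% in wild-type mice. Slc16a3 had 11.9, 14.8 and 11.6 normalized CPM in MCJ-deficient NP libraries, against 0.973 and 0.566 in MCJ-deficient NN libraries (log2 fold change 4.05 ± 0.96, edgeR adjusted p = 0.0301). In wild-type mice it had 3.19, 2.87 and 12.5 in NP, against 0.0, 0.0486 and 0.0765 in NN, a ratio of scaled counts of 159 (95% exact interval 54.1 to 771.7; edgeR adjusted p = 0.00238). No NP library reached down to an NN library. The MCJ-deficient call was lost without NN replicate 13 or 14 and without NP replicate 20 or 21, with log2 fold changes from 3.71 to 4.49 over the replicates left out. The wild-type call was lost when the NP and NN groups were fitted alone (adjusted p up to 0.111), and 2 or 3 genes were called in wild-type mice without wild-type NN replicate 3, wild-type PP replicate 11 or MCJ-deficient PP replicate 23 or 24.

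The remaining 32 genes did not pass the test after DSS alone. Median log2 fold changes of the 33 genes were 0.04 in MCJ-deficient and 0.03 in wild-type mice, beside 0.02 and 0.14 for all genes tested. Adm had 24.4, 18.7 and 27.3 normalized CPM in wild-type NP libraries, against 50.6, 106 and 36.4 in wild-type NN libraries, just outside the threshold (log2 fold change -1.45 ± 0.38, edgeR adjusted p = 0.0541). Neutrophil markers summed to 309 to 534 normalized CPM in MCJ-deficient and 348 to 654 in wild-type NP libraries, against 3.86 to 4.52 and 2.37 to 7.64 in NN libraries, and colonocyte markers to 18390 to 22620 and 17480 to 24090, against 22990 to 29190 and 31750 to 34020. These sums did not overlap within a genotype, nor did those of macrophage markers. Monocyte markers overlapped in MCJ-deficient (691 to 1330 in NP against 548 to 932 in NN) and in wild-type mice (965 to 1729 against 1239 to 2063). The part of all these markers in the results was not tested.

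Setting PP against NP mice asks what antibiotic before DSS adds to DSS. In MCJ-deficient mice 1 of the 33 genes rose by the test, Ddit4, where 1.34% of all genes did. It had 33.7, 48.6 and 16.6 normalized CPM in PP, against 12.1, 7.94 and 6.44 in NP, without overlap (log2 fold change 1.90 ± 0.45, edgeR adjusted p = 0.0441). Vegfa, Pfkfb3 and Bnip3 followed at 1.58 ± 0.40, 3.64 ± 0.93 and 1.89 ± 0.53, each outside the threshold (edgeR adjusted p = 0.0552, 0.0565 and 0.0758). In this comparison 28 of the 33 genes had a positive log2 fold change, where 50.2% of all genes did, with a median of 0.55 against 0.01 for all genes. Without PP replicate 23, 24 were positive with a median of 0.28, none was called (6 at an unadjusted p under 0.05), and Ddit4, Vegfa, Pfkfb3 and Bnip3 were at 1.51 ± 0.47, 1.14 ± 0.41, 2.15 ± 0.88 and 0.86 ± 0.44. Ddit4 was no longer called either without MCJ-deficient PP replicate 22, NN replicate 13 or 14, NP replicate 19, 20 or 21, or without wild-type PP replicate 12 or NP replicate 7, 8 or 9 (edgeR adjusted p up to 0.23). The count rose to 2 or 3 without wild-type NN replicate 2 or 3 or wild-type PP replicate 10 or 11, and to 10 without MCJ-deficient PP replicate 24.

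In wild-type mice the 1 gene that rose by the test was Vegfa, where 3.49% of all genes did. Vegfa had 48.8, 25.2 and 23.98 normalized CPM in PP, against 9.93, 9.04 and 14.5 in NP, again without overlap (log2 fold change 1.55 ± 0.40, edgeR adjusted p = 0.0352). Slc16a3 had 75.4, 10.1 and 30.1 in PP and 3.19, 2.87 and 12.5 in NP, which overlapped (2.64 ± 0.74, edgeR adjusted p = 0.0519). Here 13 genes had a positive log2 fold change, where 53.0% of all genes did, with a median of -0.17 beside 0.06 for all genes. Vegfa was no longer called without wild-type NP replicate 7, 8 or 9, wild-type PP replicate 10 or 12, MCJ-deficient NP replicate 19 or MCJ-deficient PP replicate 22 (edgeR adjusted p up to 0.266). Between 2 and 3 genes were called without wild-type NN replicate 2, wild-type PP replicate 11 or MCJ-deficient PP replicate 23 or 24. Both comparisons share the PP libraries with the contrast against NN mice. Wild-type PP replicate 11 had macrophage markers of 637 normalized CPM, against 5053 and 4828 in the other wild-type PP libraries, and its colonocyte sum was 16770, against 10950 and 11600.

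Markers also moved between PP and NP mice. In MCJ-deficient mice PP and NP libraries did not overlap for macrophage (2902 to 5515 against 529 to 1565 normalized CPM), neutrophil (1806 to 8167 against 309 to 534), red blood cell (752 to 11580 against 33.5 to 69.5) or colonocyte markers (10620 to 15740 against 18390 to 22620). In wild-type mice they did not overlap for macrophage (637 to 5053 against 151 to 241), red blood cell (257 to 347 against 49.0 to 94.8) or colonocyte markers (10950 to 16770 against 17480 to 24090), while neutrophil markers did (263 to 1674 against 348 to 654). Monocyte markers did not overlap in MCJ-deficient mice (2706 to 4021 against 691 to 1330) and overlapped in wild-type mice (627 to 2110 against 965 to 1729). All markers of these lists were detected in the 4 groups, and their part in the results was not tested.

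The effect of MCJ was read within each condition. In PP mice 32 of the 33 genes had a positive log2 fold change in MCJ-deficient against wild-type libraries, with a median of 0.83, where 50.9% of all genes tested were positive and their median was 0.01. None of the 33 was called, nor was any of the 14556 genes tested (0.0%). Not even Dnajc15 itself was, at 0.51, 0.59 and 3.34 normalized CPM in MCJ-deficient and 27.4, 23.7 and 28.4 in wild-type PP libraries. The lack of calls here therefore does not show a lack of differences. Unadjusted p under 0.05 was reached by 13 of the 33 (39.4%) and by 5.21% of all genes, and DESeq2 also called none of the 33. In 8 genes (Hk2, Gpi1, Aldoa, Aldoc, Slc2a1, Pdk1, Egln3 and Ndrg1) every MCJ-deficient PP library was above every wild-type PP library, as in 5.53% of all genes, and in none was every one below, as in 6.21%. The genes are not independent of each other, and 1 library carried much of the pattern. Without MCJ-deficient PP replicate 23, 23 genes had a positive and 10 a negative log2 fold change, the median was 0.43, and 3 had an unadjusted p under 0.05. The shares and the median of all genes without this library are not given, so what remained is not read as particular to the 33 genes.

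The 6 genes with the smallest p in PP mice show how replicate 23 lay within its group. Pkm had 855, 2227 and 503 normalized CPM in MCJ-deficient PP libraries, against 510, 328 and 299 in wild-type PP libraries (log2 fold change 1.66 ± 0.53; without replicate 23, 0.82 ± 0.41). Gpi1, glucose phosphate isomerase, had 348, 565 and 379, against 264, 230 and 224 (0.86 ± 0.29; without it, 0.58 ± 0.32). Slc2a1 had 102, 233 and 67.7, against 56.9, 44.4 and 37.9 (1.54 ± 0.45; without it, 0.85 ± 0.35). The groups of Gpi1 and Slc2a1 did not overlap. Egln3 had 36.7, 105 and 28.9 in MCJ-deficient PP libraries, against 17.2, 21.98 and 13.6 in wild-type PP libraries (1.69 ± 0.48; without it, 0.87 ± 0.36). Bnip3 had 50.7, 151 and 21.9, against 25.02, 17.9 and 21.4 (1.79 ± 0.60; without it, 0.74 ± 0.42), the groups of which overlapped, as did those of Pkm. Ndrg1 had 171, 248 and 86.9, against 72.5, 52.2 and 80.4 (1.31 ± 0.40; without it, 0.89 ± 0.40). The second MCJ-deficient value is replicate 23, the highest for each of these 6 genes, and the edgeR adjusted p was 0.938 for all 6. Of the whole set, 10 genes turned negative or stayed negative without it, among them P4ha1 at -0.92 ± 0.49 and Slc16a3 at -0.64, against 0.28 and 0.51 with it.

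**Figure D5:**
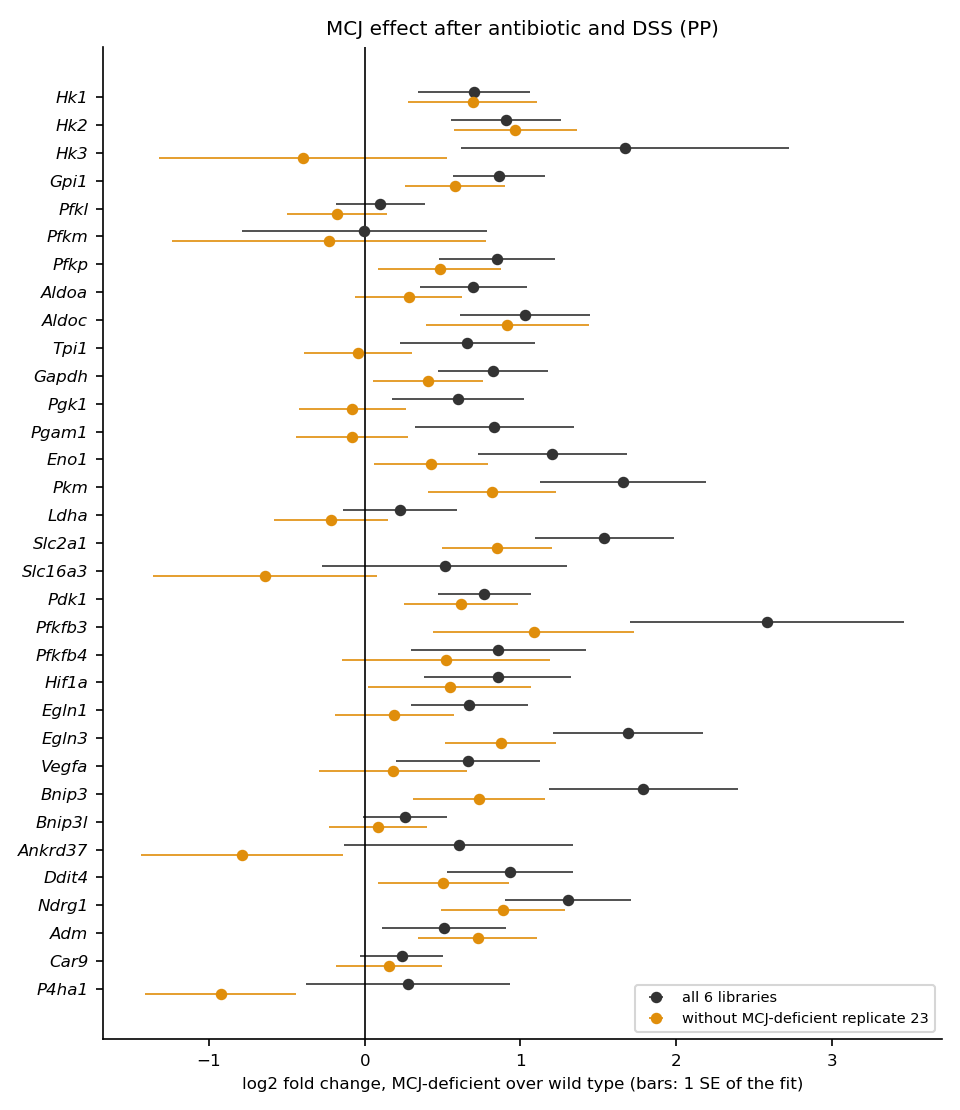
Log2 fold change of each of the 33 genes in MCJ-deficient against wild-type PP mice, from all 6 libraries (dark, upper point) and without MCJ-deficient replicate 23 (orange, lower point), with bars of 1 SE of the fit. With all libraries 32 genes lie right of 0, and without replicate 23 there are 23.

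In PP mice the neutrophil markers summed to 1828, 8167 and 1806 normalized CPM in MCJ-deficient libraries, against 1674, 263 and 1288 in wild-type libraries, with all 12 detected in both groups. The 4 red blood cell markers summed to 7593, 11580 and 752, against 347, 315 and 257. Macrophage markers summed to 3319, 5515 and 2902, against 5053, 637 and 4828, which overlapped. The 8 monocyte markers summed to 4021, 3257 and 2706, against 2110, 627 and 1481. Neutrophil, red blood cell and monocyte markers were thus higher in every MCJ-deficient than in every wild-type PP library. The mitochondrial share of counts was lower, 25.4% to 35.2% against 38.7% to 48.4%. The part of these values in the results was not tested.

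In NP mice none of the 33 genes was called between genotypes by edgeR or by DESeq2, beside 1.0% of all 14452 genes called by edgeR. Unadjusted p under 0.05 was reached by 4 of the 33, where 9.24% of all genes reached it, and 21 of 33 were positive, where 52.4% of all genes were. In 5 genes every MCJ-deficient NP library was above every wild-type one, and in 1 below, where 9.8% and 7.35% of all genes were. Slc2a1 had 59.2, 69.9 and 64.1 normalized CPM in MCJ-deficient NP libraries, against 34.3, 36.9 and 55.8 in wild-type NP libraries (log2 fold change 0.61 ± 0.24, edgeR adjusted p = 0.445). Pfkfb3 had 5.70, 8.11 and 11.0, against 2.93, 2.66 and 6.37 (1.05 ± 0.43, edgeR adjusted p = 0.464). For Slc2a1 the groups did not overlap, while those of Pfkfb3 did. Vegfa had 16.6, 16.0 and 18.6 normalized CPM in MCJ-deficient libraries, against 9.93, 9.04 and 14.5 in wild-type libraries (0.61 ± 0.28, edgeR adjusted p = 0.531), and Adm had 32.3, 31.8 and 41.9, against 24.4, 18.7 and 27.3 (0.59 ± 0.24, edgeR adjusted p = 0.47), both without overlap. Ndrg1 had 124, 66.3 and 75.5, against 53.5, 63.7 and 65.3 (0.54 ± 0.26, edgeR adjusted p = 0.577), with no overlap by a narrow margin. Slc16a3 had 11.9, 14.8 and 11.6 in MCJ-deficient NP libraries, against 3.19, 2.87 and 12.5 in wild-type NP libraries (1.05 ± 0.50, edgeR adjusted p = 0.577), and was called only without wild-type replicate 9, its highest wild-type library (log2 fold change 2.07, edgeR adjusted p = 0.0173). Macrophage markers summed to 529 to 1565 normalized CPM in MCJ-deficient and 151 to 241 in wild-type NP libraries, without overlap, and their part in these values was not tested.

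In NN mice 32 of the 33 genes passed the filter on low counts, all but Hk3. None was called by edgeR, nor was any other of the 13559 genes tested (0.0%), and DESeq2 called 1 of the 32. Dnajc15 was not called by edgeR either, at 2.7 and 2.9 normalized CPM in MCJ-deficient and 52.6, 17.5 and 39.3 in wild-type NN libraries. Here too, the lack of calls does not show a lack of differences. Unadjusted p under 0.05 was reached by 2 of the 32, where 8.29% of all genes reached it, and 18 of the 32 were positive, where 54.7% of all genes were. Gapdh had 102 and 136 normalized CPM in MCJ-deficient NN libraries, against 178, 252 and 181 in wild-type NN libraries (log2 fold change -0.83 ± 0.25, edgeR adjusted p = 0.572; DESeq2 adjusted p = 0.0238). Ndrg1 had 85.2 and 64.7, against 44.7, 44.8 and 46.4 (0.68 ± 0.22, edgeR adjusted p = 0.572). Hif1a had 78.4 and 132, against 53.7, 10.7 and 49.3 (1.41 ± 0.61, edgeR adjusted p = 0.612), Pdk1 36.8 and 33.4, against 20.3, 21.8 and 25.2 (0.60 ± 0.26, edgeR adjusted p = 0.622), and Egln1 25.3 and 24.96, against 10.6, 14.5 and 18.5 (0.74 ± 0.36, edgeR adjusted p = 0.674). The groups did not overlap for any of these 5 genes. Slc16a3 had 59 counts in the MCJ-deficient and 3 in the wild-type NN libraries, a ratio of scaled counts of 18.2 (95% exact interval 5.93 to 90.7, counting error only). It passed the filter only through the MCJ-deficient group, where it was high, so it had to differ and its p is not given. In all, 13 genes were above and 2 below without overlap, where 20.4% and 10.9% of all genes were. Slc16a3 is among these 13 and among the 18 positive genes. Colonocyte markers summed to 22990 to 29190 normalized CPM in MCJ-deficient and 31750 to 34020 in wild-type NN libraries, and monocyte markers to 548 to 932 and 1239 to 2063, with Ccr2 at 0 in wild-type mice. The mitochondrial share was 23.1% to 28.4% in MCJ-deficient and 38.9% to 50.4% in wild-type NN libraries. None of these 3 measures overlapped between genotypes, and their part in the results was not tested. Without wild-type NN replicate 2 the log2 fold change was -0.66 for Gapdh and 0.97 for Hif1a, and no gene was called (3 of the 32 at an unadjusted p under 0.05).

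Averaged over PP, NP and NN, the effect of MCJ was positive for 31 of the 33 genes with a median log2 fold change of 0.38, where 57.0% of all genes were positive with a median of 0.08. None of the 33 was called by edgeR (0.0059% of all genes were), and DESeq2 called 4. Unadjusted p under 0.05 was reached by 12 of the 33 (36.4%), against 13.7% of all genes. Ndrg1, at 0.86 ± 0.19 (edgeR adjusted p = 0.0901), and Slc2a1, at 0.86 ± 0.21 (edgeR adjusted p = 0.105), came nearest. These values hold the PP libraries again. Without MCJ-deficient PP replicate 23 the median was 0.22, 26 genes were positive and 8 had an unadjusted p under 0.05, and without MCJ-deficient PP replicate 24, 3 were called.

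The effect of MCJ was not shown to differ between conditions. The interaction of PP against NP called none of the 33 genes or of all 16958 (0.0%), by edgeR, with 7 of the 33 at an unadjusted p under 0.05 (5.22% of all genes), and DESeq2 called none of the 33. Hk2, the insulin-responsive hexokinase, had the smallest p, with a difference of 1.44 ± 0.42 on the log2 scale (edgeR adjusted p = 0.528). Its levels were 180, 101 and 82.1 normalized CPM in MCJ-deficient and 67.5, 65.7 and 64.6 in wild-type PP libraries, and 59.0, 67.0 and 52.1 in MCJ-deficient and 86.2, 56.3 and 120 in wild-type NP libraries. For NP against NN neither edgeR nor DESeq2 called any of the 33, and 1 had an unadjusted p under 0.05 (5.6% of all genes).

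Genes of the same pathways outside the 33 were read from 2 further lists. Of 46 other hypoxia genes, 44 were tested over all libraries, and in PP against NN mice 8 rose in MCJ-deficient mice, where 6.52% of all genes rose, while 11 rose and 1 fell in wild-type mice, where 12.8% and 7.31% of all genes did. The 8 were also among the 11, an overlap for which the share over all genes is not given. Hilpda, a lipid droplet protein, had 102, 223 and 93.4 normalized CPM in MCJ-deficient PP libraries, against 5.50 and 5.48 in MCJ-deficient NN libraries (log2 fold change 4.67 ± 0.74, edgeR adjusted p = 0.000485). Hmox1, heme oxygenase, had 871, 921 and 118, against 13.8 and 5.68 (6.03 ± 0.98, edgeR adjusted p = 0.000628). Cxcr4, a chemokine receptor of leukocytes, had 44.4, 33.5 and 45.7 in MCJ-deficient PP libraries, against 0.132 and 0.514 in MCJ-deficient NN libraries (6.98 ± 1.24, edgeR adjusted p = 0.00139). In wild-type mice Cxcr4 had 174, 15.8 and 88.3 in PP, against 0.0, 0.0486 and 1.03 in NN (7.93 ± 1.08, edgeR adjusted p = 8.11e-05). None of these groups overlapped. Without MCJ-deficient PP replicate 23, Hilpda was at 4.16 ± 0.70, Hmox1 at 5.66 ± 0.98 and Cxcr4 at 7.10 ± 1.29. The median over the 44 was 1.27 in MCJ-deficient and 0.94 in wild-type mice, beside 0.06 and 0.27 for all genes.

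Of 47 other glycolysis and glucose genes, 42 were tested over all libraries, and in PP against NN mice 4 rose and 7 fell in MCJ-deficient mice, where 6.52% and 3.77% of all genes did, while 4 rose and 8 fell in wild-type mice, where 12.8% and 7.31% did. Pygl, the liver glycogen phosphorylase, Slc2a3, a high-affinity glucose importer, and Slc2a6, a glucose transporter family member, rose in both. Pygl had 43.1, 99.0 and 30.0 normalized CPM in MCJ-deficient PP libraries, against 0.5 and 0.669 in MCJ-deficient NN libraries (log2 fold change 6.61 ± 1.16, edgeR adjusted p = 0.00118). Eno3, the muscle enolase, fell to 3.22, 3.73 and 5.12 in MCJ-deficient PP libraries, against 145 and 173 in MCJ-deficient NN libraries (-5.31 ± 0.74, edgeR adjusted p = 0.000182), and to 2.72, 26.6 and 6.44 in wild-type PP libraries, against 155, 175 and 121 in wild-type NN libraries (-3.65 ± 0.67, edgeR adjusted p = 0.00102). Pdhb, a subunit of pyruvate dehydrogenase, fell to 62.6, 67.0 and 72.8 in MCJ-deficient PP libraries, against 149 and 131 in MCJ-deficient NN libraries (-1.06 ± 0.22, edgeR adjusted p = 0.00437). Without replicate 23, Pygl was at 5.96 ± 1.15, Eno3 at -5.25 ± 0.90 and Pdhb at -1.05 ± 0.25 in MCJ-deficient mice. The macrophage, neutrophil and colonocyte sums given above did not overlap between the same libraries, and their part in these lists was not tested.

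Between genotypes, 1 gene of these lists was called in any condition. Cxcr4 had 7.92, 20.7 and 14.01 normalized CPM in MCJ-deficient NP libraries, against 2.06, 2.21 and 3.95 in wild-type NP libraries, without overlap (log2 fold change 2.37 ± 0.43, edgeR adjusted p = 0.0245). After DSS alone, Cxcr4 was also the only gene of both lists called, in MCJ-deficient NP against NN mice (5.44 ± 1.17, edgeR adjusted p = 0.0155). In PP against NP mice, 3 other hypoxia genes rose in MCJ-deficient (Hmox1, Nos2 and Hilpda) and 4 in wild-type mice, among them Cxcr4, Hilpda and Hmox1, where 1.34% and 3.49% of all genes rose. Without MCJ-deficient PP replicate 23, Hmox1 was at 3.58 ± 0.75 (edgeR adjusted p = 0.0458), while Nos2, at 3.54 ± 1.01, and Hilpda, at 1.804 ± 0.55, were outside the threshold (edgeR adjusted p = 0.159 and 0.191). Of the other glycolysis genes, Eno3 fell in both genotypes (log2 fold change -4.10 ± 0.68 in MCJ-deficient and -3.03 ± 0.65 in wild-type mice, edgeR adjusted p = 0.0099 and 0.012). In wild-type mice Mpc2, a subunit of the mitochondrial pyruvate carrier, fell as well, and Pygl and Slc2a6 rose.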

How the data were processed

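The authors deposited raw counts per gene, in 3 tables of 27179 NCBI gene numbers, 1 table per condition with both genotypes. Per the submitters' processing notes, base calls came from CASAVA 1.8.2, reads were checked with FastQC, trimmed with Trim Galore and aligned to mm10 with STAR 2.5.4, and DESeq2 was used. The counting program, annotation and strand setting are not given in the sources used here. Symbols came from RefSeq for 25275 gene numbers, and the 1904 without a symbol stayed in the fits and held 1.39% to 7.32% of a library's counts. Libraries were grouped by the labels, and replicate numbers are the library numbers in the titles.

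Genes were filtered with filterByExpr and scaled with TMM, and the quasi-likelihood test of edgeR 4.0.16 (R 4.3.3) was run on the deposited counts. Genotypes were compared inside the table of each condition. Other comparisons used a joint model of the 17 libraries with 6 groups. Benjamini-Hochberg adjustment covered every gene that passed the filter, and called means an adjusted value below 0.05. Normalized CPM use the scaling of the 17 libraries and can differ slightly from the scaling within a table. Levels per kb were divided by the longest protein-coding transcript of GENCODE M21. Where a group held 3 counts or fewer, a ratio of scaled counts is given with an exact interval for 95%, which covers counting error only. Alternatives were RLE and upper-quartile scaling, no filter, no mitochondrial genes, DESeq2 1.42.0, the other choice of libraries in the fit, and leaving out each library. The fits were tested on simulated data.

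The 33 genes and the other lists were chosen with earlier results of these data known. Named with values are genes called in any comparison, the 6 with the smallest p in each comparison of genotypes, and up to 3 genes with the smallest p of each further list. Hk2, Slc16a3, Egln3, Gapdh, Adm, Vegfa and others outside the threshold were named beside these after their values were seen. Eno1 shares reads with its near-identical copy Eno1b, so its counts are uncertain, and 17 of the 33 genes overlap a gene on the other strand.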

Additional observations from a re-analysis of the deposited data

How the results depend on the processing

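For 41 results on single genes, 740 alternative values were computed. Of these, 650 kept both direction and side of the threshold, 88 lost the threshold, 2 gained it, and none changed direction. Of 13 counts of genes called, 201 of 262 alternative values stayed within 1.5 times the main count. With 2 or 3 libraries a group, counts of 0 or 1 move by that margin whenever 1 gene crosses the threshold.

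Under DESeq2 the number of the 33 genes called was 1 between genotypes in NN, 2 (MCJ-deficient) and 3 (wild type) for DSS alone, 11 and 4 for antibiotic before DSS against DSS alone, 15 for antibiotic and DSS against no treatment in MCJ-deficient mice, 1 for the difference of the MCJ effect between PP and NN, and 4 for the averaged MCJ effect. With no filter it was 3 for DSS alone in wild-type mice, 5 and 3 for antibiotic before DSS, and 1 for the averaged effect. RLE scaling gave 2 and 2 for antibiotic before DSS, and upper-quartile scaling gave 0 in MCJ-deficient mice (15 at an unadjusted p under 0.05). Fits of only the 2 groups gave 2 and 0 for DSS alone, 3 and 2 for antibiotic before DSS, and 4 for antibiotic and DSS in wild-type mice. For the counts in this paragraph, and for those below with 1 library left out, the share of all genes called is not given. They are therefore not read as particular to the 33 genes. The cause was not tested.

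Leaving out 1 library at a time gave 0 to 1 calls between genotypes in NP, 0 to 1 and 1 to 3 for DSS alone, 0 to 10 and 0 to 3 for antibiotic before DSS, 1 to 13 and 6 to 10 for antibiotic and DSS, and 0 to 3 for the averaged effect, with MCJ-deficient before wild type in each pair. Upper-quartile scaling moved the median log2 fold change of all genes by over 0.1: for antibiotic and DSS to -0.05 in MCJ-deficient and 0.07 in wild-type mice (0.06 and 0.27 with TMM), and for antibiotic before DSS to -0.13 and -0.07. Under it 6 of the 33 genes were higher and 7 lower for antibiotic and DSS in wild-type mice, and all genes were 1811 higher and 1680 lower (2169 and 1240 with TMM). In MCJ-deficient mice all genes were 1040 higher and 851 lower under it, and 1215 and 486 under RLE (1106 and 640 with TMM). Library numbers are not shared between groups. Mouse numbers 1 and 2 occur in MCJ-deficient NN and NP titles; colon tissue was taken from each, and nothing says that a number marks 1 animal or batch. With these as a replicate block, added after the data were seen, 0 of the 33 genes were called for DSS alone in MCJ-deficient mice (3 at an unadjusted p under 0.05). Deviations of same-numbered libraries from their group means had r = -0.02 and -0.01 over 16958 genes, against 0.01 and 0.02 with the numbers crossed. With 2 MCJ-deficient NN libraries, 1 deviation is the negative of the other. These values therefore cannot tell whether the numbers mark pairs. No other groups of 1 genotype share a mouse number, and the number 10 shared by 1 MCJ-deficient and 1 wild-type PP mouse marks different animals.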
